A study of Mus musculus with 4 samples.

Results

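The Slc25 genes encode the mitochondrial carriers, a family of small membrane proteins that move nucleotides, phosphate, carboxylic acids, amino acids, cofactors and iron across the inner mitochondrial membrane. The members described here are the protein-coding mouse genes whose symbol is Slc25a followed by digits only, which gave 47 of the 47069 gene identifiers in the files. Carriers filed under other symbols, such as the uncoupling proteins Ucp1, Ucp2 and Ucp3, fall outside that rule and are given separately. The family was chosen by the measured levels of Slc25a30, whose virus ratios in normal culture and in deprivation were among the widest apart in opposite directions, so the levels of Slc25a30 in all 4 libraries are a description and carry no test.

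Most carriers are built from repeats of a pair of membrane helices, alternate between a state open to the cytosol and a state open to the matrix, and exchange one substrate for another. They set the supply of ADP and phosphate to ATP synthase, carry reducing equivalents in the malate-aspartate shuttle, export citrate for lipid synthesis, and bring in glycine and iron for heme. They are made on cytosolic ribosomes, and import through the TOM complex of the outer membrane and the TIM22 complex of the inner membrane brings them to their place.

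The samples were cultures of HT22, a mouse line of strain C57BL/6 immortalised from hippocampal neurons, with 1 RNA sequencing library in each of 4 groups. All groups received an adenovirus 2 h after seeding: either a control virus or a virus that the library labels describe as a knockdown of the long noncoding RNA AK046375. Either virus was followed by normal culture or by deprivation of oxygen and glucose (OGD), which meant glucose-free medium under nitrogen for 6 h. The series title and design text name overexpression and a lentivirus instead, and 0 gene identifiers matched AK046375 by name, so its level was not analysed here and "labelled knockdown" is used throughout. Where 4 values are given, they run from normal culture to OGD, with the control virus first in each. Libraries are named by virus and culture, as in control normal and labelled-knockdown OGD.

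Each group held 1 library, so library and condition cannot be told apart, no difference was tested, and brackets hold 95% counting intervals for a pair of libraries. Totals ran from 23327743 to 27539845 counts per library, and 11429 to 12330 genes reached 1 FPKM, the unit that scales counts by effective transcript length and library total. The neuronal markers Rbfox3, Nefl, Nefm and Snap25 were at 0 counts in all 4 libraries, while Tubb3 stood at 40.6, 37.8, 7.17 and 7.84 FPKM and the fibroblast marker Col1a1 at 393, 478, 224 and 321. The other fibroblast markers were lower in labelled-knockdown normal than in control normal: Pdgfra stood at 12.9, 3.08, 3.79 and 11.5 FPKM, high and low in the same libraries as Slc25a30, and Dcn at 2.25, 1.00, 2.63 and 3.11. The neuronal list of 7 genes summed to between 7.73 and 41.7 FPKM and the neural progenitor list, nearly all Vim, to 2517, 893, 4704 and 4131, with Sox2 at 0. Astrocyte, microglia, oligodendrocyte and endothelial lists summed to at most 3.42 FPKM in any library. The part of these differences in the carrier levels was not tested. In bulk RNA, fewer cells of a type and less RNA per cell cannot be told apart.

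A single promoter window from RefSeq (GRCm38.p6) is shown for each of 5 carriers on which the results turn: Slc25a30, with opposite virus ratios, and Slc25a36, Slc25a38, Slc25a1 and Slc25a42, the 4 members whose OGD ratio was past 2-fold in the same direction under both viruses. Each holds the 250 bases before the RefSeq transcription start, 5′ to 3′ on the strand of the gene. Capitals mark ACGTG on either strand, the only form of the hypoxia response element core that was searched. A window without capitals may hold other forms of the core. In Slc25a36 and Slc25a1 the matches on the 2 strands overlap in the palindrome CACGTG, which is also an E-box.
Slc25a30, chr14:75787038-75787287, minus strand: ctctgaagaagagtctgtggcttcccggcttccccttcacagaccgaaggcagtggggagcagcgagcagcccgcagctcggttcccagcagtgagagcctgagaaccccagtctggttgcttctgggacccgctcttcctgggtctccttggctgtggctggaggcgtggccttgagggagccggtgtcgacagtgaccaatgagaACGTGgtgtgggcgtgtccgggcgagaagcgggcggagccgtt
Slc25a36, chr9:97111042-97111291, minus strand: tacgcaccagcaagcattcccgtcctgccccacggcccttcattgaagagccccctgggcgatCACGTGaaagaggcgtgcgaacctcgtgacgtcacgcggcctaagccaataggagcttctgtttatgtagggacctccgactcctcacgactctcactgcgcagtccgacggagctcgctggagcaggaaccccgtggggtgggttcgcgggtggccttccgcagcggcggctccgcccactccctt
Slc25a38, chr9:120110132-120110381, plus strand: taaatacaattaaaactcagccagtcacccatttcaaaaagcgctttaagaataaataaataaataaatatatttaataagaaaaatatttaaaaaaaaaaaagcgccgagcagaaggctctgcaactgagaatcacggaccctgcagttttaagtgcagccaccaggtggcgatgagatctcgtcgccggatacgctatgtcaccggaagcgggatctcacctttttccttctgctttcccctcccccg
Slc25a1, chr16:17928220-17928469, minus strand: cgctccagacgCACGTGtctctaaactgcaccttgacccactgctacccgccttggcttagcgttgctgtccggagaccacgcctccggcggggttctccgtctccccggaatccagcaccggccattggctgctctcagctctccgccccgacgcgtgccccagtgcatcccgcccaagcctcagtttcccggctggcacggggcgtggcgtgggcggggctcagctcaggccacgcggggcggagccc
Slc25a42, chr8:70212282-70212531, minus strand: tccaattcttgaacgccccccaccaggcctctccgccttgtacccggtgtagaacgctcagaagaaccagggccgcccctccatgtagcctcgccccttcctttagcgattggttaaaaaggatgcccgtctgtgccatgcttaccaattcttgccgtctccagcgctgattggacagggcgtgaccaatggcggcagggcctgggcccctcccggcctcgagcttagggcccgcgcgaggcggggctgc

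The RefSeq table gave 46 promoter windows for 36 of the 47 members. The sequence ACGTG was present in 26.1% of those windows and in 16.6% of all 32851 windows of the same length. The CCAAT box, searched as CCAAT on both strands, was in 45.7% of member windows and 33.8% of all, and the GC box GGGCGG in 69.6% and 32.7%. The antioxidant response element, searched as TGACNNNGC on both strands, was in 19.6% and 10.2%, and of the 5 windows shown only that of Slc25a38 held it. In Slc25a30 the ACGTG match lay at -43 to -39 from the start and a CCAAT box at -52 to -48. These letters are a description of the windows, and binding was not measured.

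Of the 47 members, 37 averaged 1 FPKM or more and entered the comparisons, among 12255 genes in all. The member just inside that limit was Slc25a35 at a mean of 1.04 FPKM and the member just outside was Slc25a27 at 0.445. Among the other members below it, Slc25a31, an ADP/ATP carrier of germ cells, and Slc25a48 and Slc25a54 were at 0 counts in all libraries. Slc25a18, Slc25a41 and Slc25a43 had at most 2 counts in any library, Slc25a2 had 0, 6, 5 and 4, Slc25a34 had 19, 12, 13 and 7, and Slc25a21 had 15, 12, 4 and 5.

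Most of the carrier transcript in these cells came from 4 genes. Slc25a3, the phosphate carrier, Slc25a4 and Slc25a5, the ADP/ATP carriers, and Slc25a39, a carrier needed for mitochondrial glutathione, together held 66.9%, 75.3%, 76.9% and 72.8% of the summed FPKM of the family. That sum was 2575, 3031, 2197 and 2299 FPKM, and the family took 0.303%, 0.353%, 0.266% and 0.278% of all counts. The order at the top differed between libraries: Slc25a3 led in both control libraries, at 459 and 573 FPKM, Slc25a4 led in the labelled-knockdown normal library at 765 FPKM, and Slc25a5 led in the labelled-knockdown OGD library at 567 FPKM.

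**Figure D1:**
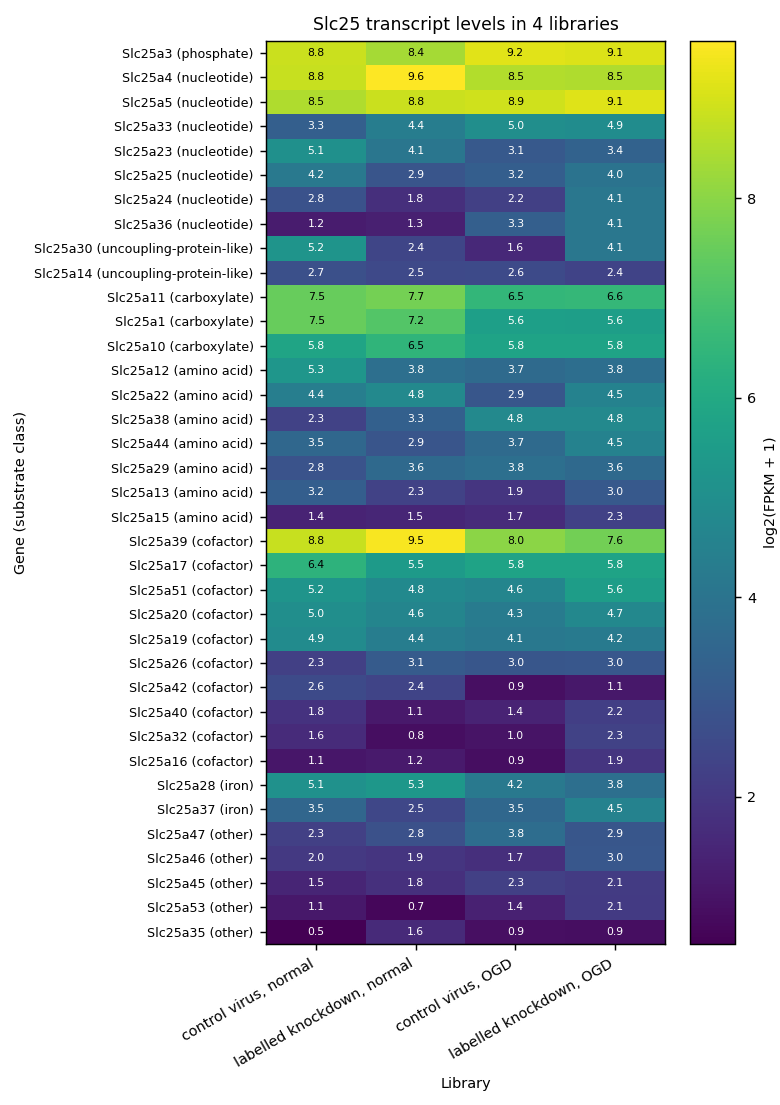
Levels of the 37 Slc25 members that passed the filter, as log2(FPKM + 1) printed in each cell and coloured on the same scale, with libraries in columns and genes in rows ordered by substrate class. Slc25a3, Slc25a4, Slc25a5 and Slc25a39 were the brightest rows in every library, and Slc25a30 was high in the control normal and labelled-knockdown OGD libraries and low in the other two.

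Slc25a30 belongs to a group of carriers related to the uncoupling proteins, and is also known as kidney mitochondrial carrier protein 1. The gene lies on the minus strand of chromosome 14, from 75760117 to 75787037 (GRCm38, GENCODE M21), and has 1 transcript. Its level was 36.2 FPKM (1421 counts) in control normal, 4.39 (154 counts) in labelled-knockdown normal, 2.00 (83 counts) in control OGD and 16.5 (578 counts) in labelled-knockdown OGD. The libraries thus crossed over: the control virus gave the higher level in normal culture and the knockdown-labelled virus gave the higher level in OGD.

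Set against its control, the labelled-knockdown library was 8.26-fold lower [6.98 to 9.80] for Slc25a30 in normal culture and 8.23-fold higher [6.52 to 10.5] in OGD. The same 4 values give an OGD level 18.1-fold lower with the control virus [14.5 to 22.9] and 3.75-fold higher [3.13 to 4.51] with the knockdown-labelled virus. On the log2 scale of FPKM + 1, on which low values are understated, the 4 ratios were -2.79, 2.54, -3.63 and 1.70. The difference of the virus ratios, OGD minus normal, was 5.33 and was the 8th largest of 12255 genes, a rank that reflects the choice of the family. Each of the 4 ratios kept its sign and stayed past 2-fold under all 9 alternatives. The effective length of Slc25a30 was between 1501 and 1508 bases in all 4 libraries, so its FPKM folds and its count folds were nearly equal (8.28-fold lower and 8.22-fold higher in counts per library total for the virus ratios).

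The carriers nearest to it in kind did not share this pattern in level. Slc25a14, known as UCP5, stood at 5.69, 4.71, 4.95 and 4.11 FPKM, and the intervals of all 4 of its pairwise folds included 1. Slc25a27, known as UCP4, stood at 0.390, 0.380, 0.530 and 0.480 FPKM on 22 to 36 counts, below the filter. Within a library, Slc25a30 was 6.37 times the level of Slc25a14 [5.43 to 7.52] in control normal and 4.01 times [3.31 to 4.88] in labelled-knockdown OGD. It was at 0.932 times [0.735 to 1.18] in labelled-knockdown normal and 0.404 times [0.308 to 0.527] in control OGD. Ucp2, an uncoupling protein gene outside the rule, stood at 360, 370, 79.9 and 67.7 FPKM, lower in OGD under both viruses and close between viruses. Ucp1 and Ucp3 reached at most 0.110 FPKM.

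**Figure D2:**
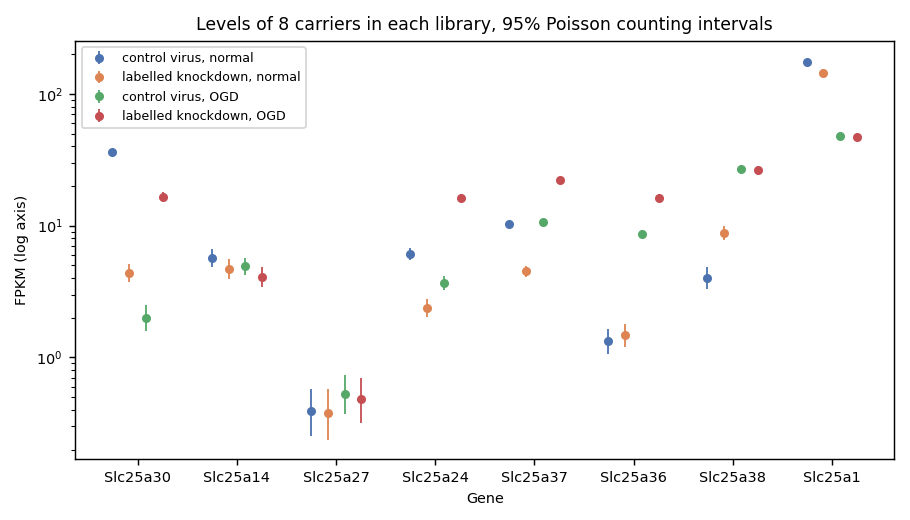
FPKM of 8 carriers in each library on a log axis, with 95% Poisson counting intervals as bars and 1 point per library. Slc25a30 spans 2.00 to 36.2 FPKM and changes order between viruses from normal culture to OGD, Slc25a14 stays between 4.11 and 5.69, and Slc25a36 and Slc25a38 are higher in both OGD libraries.

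The comparison of viruses in normal culture asked which carriers differ with the AK046375 virus in unstressed cells. Of 37 members, 2 were higher by 2-fold or more, against 4.67% of all genes, and 5 were lower, against 13.9% of all genes. The family shares were 5.41% and 13.5%, both near the background. The family median was -0.19 on the log2 scale, beside -0.27 over all genes. Those medians shift with scaling: they were 0.05 and -0.03 with median-of-ratios scaling, 0.21 and 0.11 with upper-quartile scaling and -0.46 and -0.52 with FPKM rescaled to equal library sums. The family median minus that of all genes stayed between -0.01 and 0.18 under the alternatives.

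The members lower by 2-fold or more beside Slc25a30 were Slc25a12, Slc25a25, Slc25a24 and Slc25a37. Slc25a12, the aspartate/glutamate carrier of the malate-aspartate shuttle in neurons and muscle, was at 13.2 against 38.4 FPKM, 2.91-fold lower [2.66 to 3.18]. Slc25a25 and Slc25a24 exchange ATP-Mg for phosphate under control of calcium. Slc25a25 stood at 17.4, 6.58, 8.49 and 14.6 FPKM, 2.65-fold lower [2.34 to 3.00], and Slc25a24 at 6.06, 2.38, 3.68 and 16.2 FPKM, 2.55-fold lower [2.10 to 3.11]. Slc25a37, or mitoferrin 1, an iron importer, stood at 10.3, 4.52, 10.6 and 22.4 FPKM, 2.27-fold lower [2.04 to 2.55], and its log2 ratio of -1.03 was just inside the limit, while Slc25a23 was just outside at -0.99. Only Slc25a12 and Slc25a30 stayed past 2-fold under all 9 alternatives.

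The 2 higher members were Slc25a33, a pyrimidine nucleotide carrier, at 19.7 against 8.59 FPKM (2.29-fold [2.03 to 2.60]), and Slc25a35, a carrier of unassigned substrate, at 2.04 against 0.440 FPKM on 127 against 33 counts. Exons of Slc25a35 overlap those of Rangrf on the opposite strand, which stood at 177 against 45.8 FPKM in the same libraries. The strand setting of the counting was not stated, so reads of the 2 genes may not be separated. Slc25a33 is overlapped on the opposite strand by the antisense gene Gm13068, at 1.06, 2.81, 5.71 and 3.54 FPKM. Slc25a38 was just outside the limit at 0.98. The authors' deposited table for normal culture holds 1342 genes and lists 5 members. Their log2 fold changes there were -2.78 for Slc25a30, 1.46 for Slc25a33, 1.70 for Slc25a38, 2.36 for Slc25a35 and 5.84 for Slc25a2. The value of Slc25a2 rests on 6 counts against 0. Each group held 1 library, so a listing is not read here as a tested difference.

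Under OGD, 8 of 37 members (21.6%) were higher by 2-fold or more in the labelled-knockdown library, against 16.3% of all genes, and 0 were lower, against 2.28% of all genes. The family median of 0.21 lay beside 0.26 over all genes. Both medians turned below 0 with median-of-ratios scaling (-0.14 and -0.03) and upper-quartile scaling (-0.26 and -0.13), and the difference between them stayed between -0.13 and 0.07. The authors' deposited table for OGD holds 219 genes and lists 0 members, so Slc25a30 is also absent from it.

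After Slc25a30, Slc25a24 had the highest log2 ratio, 1.88, at 16.2 against 3.68 FPKM (4.40-fold [3.84 to 5.05], and 3.55-fold in counts per library total). These were the 2 members past 2-fold under all 9 alternatives. Slc25a32, the mitochondrial folate and FAD carrier, was 3.98-fold higher [3.08 to 5.23] on 257 against 76 counts. Slc25a16, a proposed coenzyme A carrier, was 3.40-fold higher [2.41 to 4.89] on 130 against 45 counts. Slc25a46, an outer-membrane member that acts on mitochondrial shape, stood at 3.07, 2.75, 2.33 and 7.01 FPKM, 3.01-fold higher [2.60 to 3.47], and its log2 ratio of 1.27 was 0.50 once the trend with transcript length was removed. Slc25a13, the aspartate/glutamate carrier known as citrin, stood at 8.45, 3.94, 2.80 and 7.28 FPKM, 2.60-fold higher [2.16 to 3.13] and Slc25a37 was 2.11-fold higher [1.97 to 2.27]. Without the length trend, the log2 ratios of Slc25a37, Slc25a13, Slc25a32 and Slc25a16 were 0.26, 0.72, 0.76 and 0.71, also within 2-fold. Slc25a30, Slc25a24 and Slc25a22 stayed past it, at 2.36, 1.37 and 1.42.

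The ratio of Slc25a22, a glutamate carrier, rests on its length and not on its counts. Its level was 22.0 against 6.63 FPKM, 3.32-fold higher, while its counts were 315 against 389. The effective length in the files was 613 bases in labelled-knockdown OGD and 2131 in control OGD, over 25 transcripts, and its log2 ratio was -0.30 in TMM-scaled CPM. The highest effective length over the lowest was 3.47 for Slc25a22 and at most 1.68 for the other members that passed the filter.

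Opposite signs were common over all genes and among the 37 members alike. Members below 0 in normal culture and above 0 in OGD numbered 16 (43.2%), against 51.4% of all genes, and members above 0 in normal culture and below 0 in OGD numbered 9 (24.3%), against 22.4%. These signs were counted in the main setting, where the all-gene medians were -0.27 and 0.26. With upper-quartile scaling those medians were 0.11 and -0.13. Past 2-fold each way were 3 members, Slc25a30, Slc25a24 and Slc25a37 (8.11%), against 4.42% of all genes, and the opposite order was met by 0 members, against 0.645%. Of those 3, Slc25a30 met the limit under all 9 alternatives and the other two under 4 each. The log2 ratio moved with effective transcript length in both comparisons: Spearman's rho was -0.34 over the 37 members and -0.43 over all genes in normal culture, and 0.59 and 0.57 in OGD. These correlations are across genes of the same libraries, and the part of length in the member ratios was not tested beyond the removal of its trend.

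**Figure D3:**
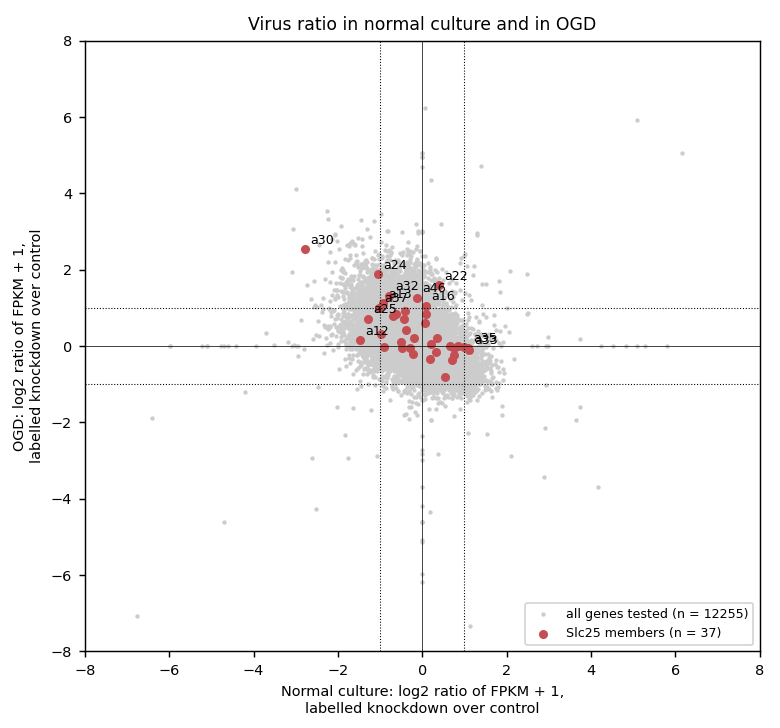
Log2 ratio of FPKM + 1, labelled knockdown over control, in normal culture (x axis) and in OGD (y axis), with 12255 genes in grey, the 37 Slc25 members in red and dotted lines at 2-fold. Members past 2-fold on either axis carry the end of their symbol; Slc25a30 lies at -2.79 and 2.54, apart from the other members, which lie within the grey cloud.

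The comparison of OGD with normal culture under each virus asked which carriers differ with deprivation. With the control virus, 5 of 37 members were higher by 2-fold or more, against 11.6% of all genes, and 7 were lower, against 24.3%. With the knockdown-labelled virus, 11 were higher, against 33.4%, and 6 were lower, against 20.9%. The family medians of -0.30 and 0.30 lay beside all-gene medians of -0.25 and 0.32, and the family median of 0.30 was -0.24 with upper-quartile scaling, where all genes were at -0.14. The family median minus that of all genes ran from -0.31 to -0.04 with the control virus and from -0.10 to 0.08 with the knockdown-labelled virus. The value of -0.31 came with the filter at 5 FPKM, where the medians were -0.59 and -0.28. The 2 comparisons share no library. Both ratios were past 2-fold upwards for 2 members, against 8.59% of all genes, and downwards for 2, against 10.1%. Slc25a30 alone was lower with the control and higher with the knockdown-labelled virus, against 2.24% of all genes, and 0 members had the opposite order, against 0.139%.

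The 2 carriers higher under both viruses were Slc25a36 and Slc25a38. Slc25a36, a pyrimidine nucleotide carrier, stood at 1.33, 1.47, 8.64 and 16.2 FPKM, which made OGD 6.50-fold higher with the control virus [5.21 to 8.20] and 11.0-fold higher with the knockdown-labelled virus [8.96 to 13.6]. Its counts of 88, 102, 809 and 906 separate the normal from the OGD libraries more than the viruses. In counts per library total, OGD was 8.68-fold higher with the control virus and 8.89-fold higher with the knockdown-labelled virus. The effective length of Slc25a36 was 3399 bases in control OGD and 2396 in labelled-knockdown OGD, so the gap between the FPKM folds rests on length. Slc25a38, the glycine carrier needed for heme synthesis in red cell precursors, stood at 4.01, 8.87, 26.9 and 26.3 FPKM, 6.72-fold higher [5.50 to 8.31] and 2.97-fold higher [2.57 to 3.44]. In counts per library total its folds were 8.78 and 2.79. The effective length of Slc25a38 was 1008 bases in control normal and 1315 in control OGD, and the intervals do not cover that difference. Slc25a33, the other pyrimidine nucleotide carrier, was 3.63-fold higher [3.24 to 4.08] with the control virus and 1.49-fold higher [1.35 to 1.63] with the knockdown-labelled virus, from a level in normal culture that already differed between viruses. All 3 genes had positive ratios in both comparisons under every alternative.

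The 2 carriers lower under both viruses were Slc25a1 and Slc25a42. Slc25a1, the citrate carrier that supplies cytosolic acetyl-CoA, stood at 176, 143, 48.3 and 47.0 FPKM, 3.65-fold lower with the control virus [3.42 to 3.89] and 3.05-fold lower with the knockdown-labelled virus [2.83 to 3.29]. It was past 2-fold under all 9 alternatives in both comparisons. Slc25a42, a coenzyme A carrier, stood at 4.96, 4.21, 0.850 and 1.15 FPKM on 378, 285, 67 and 72 counts, 5.84-fold lower [4.51 to 7.72] and 3.66-fold lower [2.83 to 4.83]. Of the other carboxylate carriers, Slc25a11, the 2-oxoglutarate/malate carrier, stood at 177, 205, 90.4 and 94.1 FPKM, 1.95-fold and 2.17-fold lower in OGD, and Slc25a10, the dicarboxylate carrier, had log2 ratios of -0.04 and -0.70.

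Further members were past 2-fold under the control virus only. Slc25a23, the third ATP-Mg/phosphate carrier, stood at 32.9, 16.1, 7.29 and 9.30 FPKM, 4.51-fold lower in OGD with the control virus [4.02 to 5.09]. Slc25a12 was 3.30-fold lower [3.00 to 3.64] with the control virus and at 13.0 against 13.2 FPKM with the knockdown-labelled virus, whose normal library already had the low level. Slc25a47, known from liver, stood at 3.76, 5.89, 12.5 and 6.72 FPKM, 3.33-fold higher [2.74 to 4.06] with the control virus. Slc25a29, a carrier of basic amino acids, stood at 6.20, 11.2, 13.4 and 11.2 FPKM, just inside the limit at 1.01. Slc25a13 and Slc25a22 were the remaining members lower with the control virus, at log2 ratios of -1.31 and -1.48. The placing of Slc25a22 under the control virus only turns on its effective length: with the knockdown-labelled virus its counts were 315 against 1053, 3.34-fold lower per library total, and with the control virus its log2 ratio in TMM-scaled CPM was -0.95.

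Past 2-fold under the knockdown-labelled virus only were Slc25a24, 6.81-fold higher [5.73 to 8.17], Slc25a37, 4.97-fold higher [4.48 to 5.52], and Slc25a44, a branched-chain amino acid carrier that stood at 10.7, 6.55, 11.7 and 22.0 FPKM, 3.36-fold higher [3.04 to 3.72]. Slc25a25, Slc25a32, Slc25a40, Slc25a46 and Slc25a53 were also past 2-fold upwards there, with log2 ratios of 1.04, 1.48, 1.05, 1.09 and 1.40. Once the trend with transcript length was removed, the log2 ratios of Slc25a37, Slc25a44, Slc25a25, Slc25a32, Slc25a40 and Slc25a46 were 0.93, 0.59, 0.43, 0.64, 0.45 and -0.07, all within 2-fold, while Slc25a24 and Slc25a53 were at 1.61 and 1.42. The ratio of Slc25a53 rests on 85 against 18 counts and was 0.55 in the lowest alternative, while Slc25a24 stayed past 2-fold under all 9. Slc25a39 stood at 446, 728, 257 and 198 FPKM, 3.67-fold lower in OGD with the knockdown-labelled virus [3.54 to 3.80] and 1.74-fold lower with the control virus. Slc25a28, or mitoferrin 2, stood at 33.5, 38.5, 17.4 and 13.4 FPKM, 2.86-fold and 1.93-fold lower, and Slc25a4 was 2.13-fold and 1.23-fold lower in the same order. Whether the virus changes the OGD ratio of these genes was not tested, since each group holds 1 library. With the knockdown-labelled virus the log2 ratio had a Spearman correlation with length of 0.50 over members and 0.47 over all genes, and with the control virus it was near 0 in both.

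**Figure D4:**
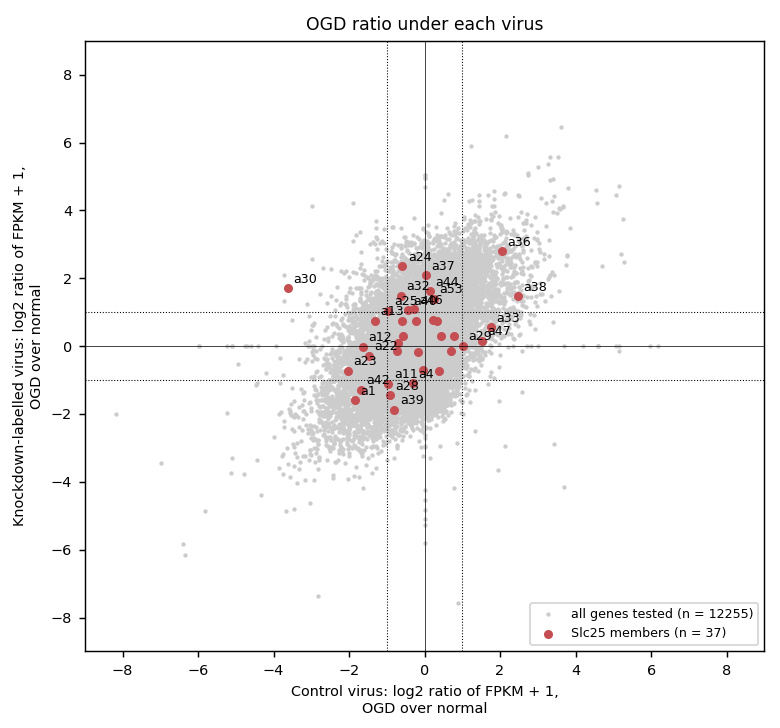
Log2 ratio of FPKM + 1, OGD over normal culture, with the control virus (x axis) and with the knockdown-labelled virus (y axis); grey points are 12255 genes, red points are the 37 Slc25 members, and dotted lines mark 2-fold. Slc25a36 and Slc25a38 lie in the upper right, Slc25a1 and Slc25a42 in the lower left, and Slc25a30 alone among members lies past 2-fold in the upper left.

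Ratios between related carriers within a library do not depend on how libraries are scaled, and the 7 pairs given here were chosen after their values were seen. Slc25a4 and Slc25a5 exchange ADP for ATP. Slc25a4 was at 1.26 times the level of Slc25a5 [1.23 to 1.30] in control normal and 1.66 times [1.62 to 1.70] in labelled-knockdown normal, but at 0.754 times [0.736 to 0.772] in control OGD and 0.631 times [0.615 to 0.647] in labelled-knockdown OGD. The order of these 2 carriers thus differed between normal culture and OGD under both viruses. The pseudogene Slc25a5-ps had 2 to 4 counts per library, but how reads shared with near-identical copies were assigned was not stated.

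The mitoferrins also changed order. Slc25a37 was at 0.307 times the level of Slc25a28 [0.282 to 0.334] in control normal, 0.118 times [0.105 to 0.131] in labelled-knockdown normal and 0.611 times [0.554 to 0.674] in control OGD, and at 1.67 times in labelled-knockdown OGD, with its interval wholly above equality. Slc25a28 was the more abundant mitoferrin transcript in 3 libraries and Slc25a37 in the remaining library. Mean effective lengths were 4120 bases for Slc25a37 and 1313 for Slc25a28. In OGD their virus log2 ratios were 1.01 and -0.35, and 0.26 and -0.42 once the trend with transcript length was removed. The part of length in the change of order was not tested, and the intervals cover counting error only. Slc25a23 exceeded Slc25a24 in 3 libraries, by 5.43, 6.76 and 1.98 times, and was at 0.574 times [0.507 to 0.648] in labelled-knockdown OGD.

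Slc25a30 and Slc25a14, given above, also changed order. In the remaining 3 pairs the order held in all 4 libraries. Slc25a12 was 4.54, 3.35, 4.15 and 1.79 times the level of Slc25a13, and Slc25a33 was 6.46, 13.4, 3.61 and 1.81 times that of Slc25a36. Slc25a39 exceeded Slc25a40, its relative in glutathione import, by 172, 602, 155 and 55.4 times. In 5 of the 7 pairs the labelled-knockdown OGD library held the lowest ratio, and in those pairs the second gene was the longer in 4: the mean effective lengths were 885 bases for Slc25a39 and 2189 for Slc25a40, 1686 for Slc25a33 and 2827 for Slc25a36, 1713 for Slc25a23 and 2519 for Slc25a24, and 2019 for Slc25a12 and 2115 for Slc25a13. In the fifth, Slc25a4, at 1444 bases, was longer than Slc25a5, at 912.

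**Figure D5:**
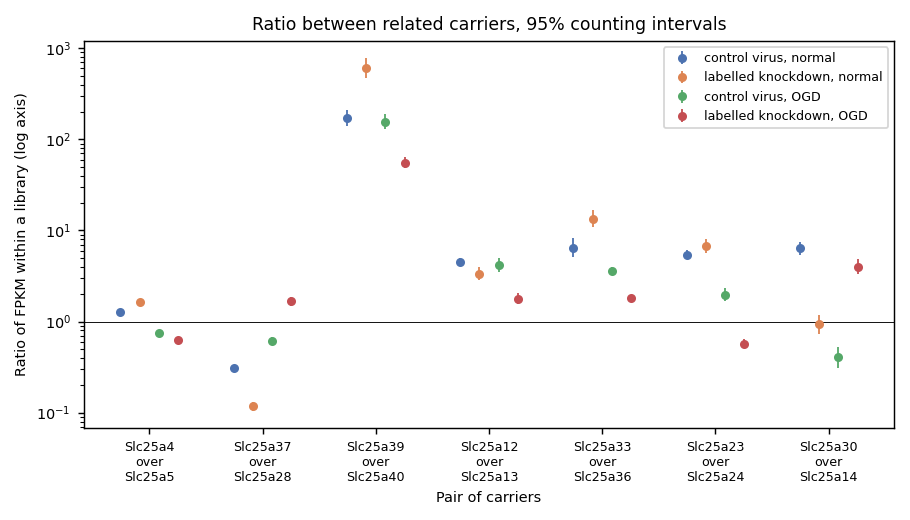
Ratio of FPKM between 7 pairs of related carriers within each library on a log axis, with 95% counting intervals as bars and a line at equal levels. The points of Slc25a4 over Slc25a5 lie above the line in both normal libraries and below it in both OGD libraries, and those of Slc25a37 over Slc25a28 lie above it only in labelled-knockdown OGD.

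Genes that act with the carriers were counted from lists chosen with earlier results of these data known. The import pathway of the carriers had 16 members measured. In normal culture 7 were higher by 2-fold or more in the labelled-knockdown library and 0 were lower, which is 43.8% and 0% against 4.67% and 13.9% of all genes, and the median of 0.90 lay beside -0.27 over all genes. In OGD 2 were higher and 2 lower, 12.5% each against 16.3% and 2.28%, with a median of -0.32 beside 0.26. With the control virus 2 of the 16 were higher in OGD and 1 was lower, 12.5% and 6.25% against 11.6% and 24.3%. Timm13, an intermembrane-space chaperone, stood at 123, 354, 191 and 86.8 FPKM, and Timm22, the channel subunit that inserts carriers, at 63.8, 152, 80.7 and 71.6. With the knockdown-labelled virus 8 of the 16 were lower in OGD, against 20.9% of all genes, and 2 (12.5%) were higher, against 33.4%, among them Tomm70a, the import receptor for carriers, at 22.9 against 8.72 FPKM. The part of transcript length in these counts was not tested.

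Of 27 measured enzymes that share substrates with the carriers, 6 were lower and 0 higher in normal culture with the knockdown-labelled virus, and 6 were higher and 0 lower in OGD. The 22.2% lower in normal culture stands against 13.9% of all genes, and the 22.2% higher in OGD against 16.3%. Acly, which cleaves the citrate that Slc25a1 exports, stood at 92.6, 27.9, 33.1 and 105 FPKM, and so had a low level in the same 2 libraries as Slc25a30. Oat, the matrix ornithine aminotransferase, stood at 144, 43.4, 46.6 and 70.1 FPKM. In OGD with the control virus 11 of 27 (40.7%) were lower, against 24.3% of all genes, and 2 (7.41%) were higher, against 11.6%. With the knockdown-labelled virus 8 were higher (29.6% against 33.4%) and 6 lower (22.2% against 20.9%). With the control virus Cpt2, the carnitine palmitoyltransferase of the inner membrane, was at 4.50 against 43.7 FPKM and Bcat2, a branched-chain aminotransferase, at 10.9 against 62.0. The 2 higher there were Gclc, which starts glutathione synthesis, at 52.9 against 4.39 FPKM, and Mthfd2, a mitochondrial folate enzyme, at 276 against 44.0.

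Of 25 other mitochondrial membrane transport genes, 2 were higher and 2 lower with the knockdown-labelled virus in normal culture, and 1 was higher and 0 lower in OGD. The shares over all genes were 4.67% and 13.9% in normal culture and 16.3% and 2.28% in OGD. In OGD against normal culture 1 was higher and 8 lower with the control virus (all genes 11.6% and 24.3%), and 5 were higher and 4 lower with the knockdown-labelled virus (all genes 33.4% and 20.9%). The outer-membrane channel gene Vdac1 stood at 430, 178, 147 and 210 FPKM. Slc8b1, the mitochondrial sodium/calcium exchanger, stood at 18.9, 13.4, 3.34 and 2.68 FPKM, lower in OGD under both viruses. Of 9 measured regulators of mitochondrial biogenesis, 0 were past 2-fold in normal culture and 1, Gabpa, was higher in OGD with the knockdown-labelled virus, 11.1% against 16.3% of all genes. In OGD against normal culture 2 were higher and 2 lower with the control virus (22.2% each, against 11.6% and 24.3%), and 3 were higher and 2 lower with the knockdown-labelled virus (33.3% and 22.2%, against 33.4% and 20.9%). Esrra, which encodes the estrogen-related receptor alpha, stood at 41.3, 40.2, 4.35 and 5.85 FPKM and Ppargc1a at no more than 1.44.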

How the data were processed

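Per the labels' protocols, RNA pieces of about 200 bp were turned into cDNA marked by dUTP, followed by 12 PCR cycles. The submitters' processing notes name TopHat2 and mm10. Tool versions, the counting program, its strand setting and the annotation were not given in the sources used here. The authors deposited expected counts, all of them whole, and FPKM, which equal those counts scaled by effective length and library total. The deposited comparison tables give log2 fold changes and p-values, which hold only some genes. Their 4 columns of values per library were not used.

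Gene symbols and types came from GENCODE M21, which matched 46488 of 47069 identifiers. Ratios were log2 ratios of FPKM + 1 for genes averaging 1 FPKM or more, called at 2-fold, with no test. Folds of FPKM carry exact conditional binomial 95% intervals from counts, which cover counting error only, since PCR copies were not marked by molecular identifiers. Alternatives were pseudocounts of 0.1 and 5 FPKM, no filter, a filter at 5 FPKM, 3 further scalings of FPKM, TMM-scaled CPM (edgeR 4.0.16, R 4.3.3) and removal of a lowess trend on effective length (span 0.3, statsmodels 0.14.6). The steps were tested on simulated Poisson counts with known changes. That simulation held no trend with transcript length and no spread between cultures, so it does not cover those features of the data. Values in all libraries were given for Slc25a30, Slc25a14 and Slc25a27 and for members past 2-fold in a comparison with at least 5 FPKM, and for the most abundant member of a class, with up to 4 genes per other list. Named genes outside that rule, and the motifs and pairs, were chosen after values were seen. The members and lists were chosen with earlier results of these data known.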

Additional observations from a re-analysis of the deposited data

Results flagged for a closer look

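In 3 of the 37 members (8.11%, against 4.42% of all genes) the virus ratio was past 2-fold lower in normal culture and higher in OGD. Slc25a30 met this under all 9 alternatives, and Slc25a24 and Slc25a37 under 4 each. The difference of the log2 ratios, OGD minus normal, was 5.33 for Slc25a30, 2.94 for Slc25a24 and 2.04 for Slc25a37. For Slc25a30 the OGD ratios under the 2 viruses were also opposite and past 2-fold, and their difference, knockdown-labelled minus control virus, is the same 5.33, since it is made from the same 4 libraries. With 1 library per group the differences were not tested.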

How the results depend on the processing

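Counts of members past 2-fold in the order higher and lower for the virus in normal culture (2 and 5), for the virus in OGD (8 and 0), for OGD with the control virus (5 and 7) and for OGD with the knockdown-labelled virus (11 and 6), and the count opposite past 2-fold (3), changed by over 1.5 times as follows, and the cause was not tested. With FPKM rescaled to equal library sums, the virus in normal culture gave 0 and 8, the virus in OGD 13 higher, OGD with the knockdown-labelled virus 17 and 2, and 5 were opposite. With TMM-scaled CPM the virus gave 7 and 2 in normal culture and 5 and 1 in OGD, OGD with the knockdown-labelled virus gave 10 lower, and 1 was opposite. Median-of-ratios scaling gave 7 and 3, then 4 and 1 for the virus, and 1 opposite. Upper-quartile scaling gave 8 and 2, then 4 and 1, 7 higher in OGD with the knockdown-labelled virus, and 1 opposite. After removal of the length trend the virus gave 4 and 2 in normal culture and 3 higher in OGD, OGD with the knockdown-labelled virus gave 6 higher, and 1 was opposite. A pseudocount of 0.1 FPKM gave 9 lower in normal culture and 6 opposite; 5 FPKM gave 0 and 2 in normal culture, 3 higher in OGD, 6 higher for OGD with the knockdown-labelled virus and 1 opposite. A filter at 5 FPKM, which tests 27 members, gave 1 higher in normal culture, 5 higher in OGD and 7 higher for OGD with the knockdown-labelled virus. With the 27 members whose effective length varied least, an alternative chosen after seeing the data, 3 were lower for the virus in normal culture, and 3 and 6 were higher in OGD with the control and knockdown-labelled virus. The shares of all genes past 2-fold under each alternative are not given here, so these member counts cannot be set against them. All-gene medians also moved with scaling. For the virus in normal culture and in OGD they were -0.27 and 0.26 in the main setting. They were -0.52 and 0.51 with rescaled sums, -0.03 and -0.03 with median-of-ratios scaling, and 0.11 and -0.13 with upper-quartile scaling. Among called ratios of named members, 2 changed sign: Slc25a22 for the virus in OGD, at -0.30 with TMM-scaled CPM, and Slc25a46 for OGD with the knockdown-labelled virus, at -0.07 without the length trend. No paired analysis was possible because each group holds 1 library. Members under about 100 counts, such as Slc25a16 and Slc25a53, are limited by depth.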
